A study of Mus musculus with 6 samples.

Results

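The lysosomal proteases examined here are 8 genes whose products cut antigen and the invariant chain for loading on MHC class II: Ctsl, Ctss, Ctsb, Ctsd, Ctsh, Ctsz and Ctsc, which encode cathepsins L, S, B, D, H, Z and C, and Lgmn, which encodes legumain. They were taken by symbol from the 27095 gene windows of the count table, and all 8 were found and passed the filter on low counts. The measurement was ATAC-seq, in which a transposase inserts adapters into open DNA, so each value is the accessibility of a window around a gene's start and not its expression. The cells were mTECs, the epithelial cells of the thymic medulla, taken for high MHC class II at their surface, from C57BL/6 mice. The wildtype group held 3 libraries and the Kat7 knockout group 3, each from its own biological replicate. Kat7 encodes a histone acetyltransferase of the MYST family. No source used here gives the age or sex of the mice, any pooling of animals, the driver of the deletion or the deleted part of Kat7.

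Thymic epithelial cells show peptides of self proteins on MHC class II to developing CD4+ T cells. The class II molecule leaves the endoplasmic reticulum with the invariant chain in its groove, and lysosomal proteases trim that chain and cut proteins into peptides in the acid late endosome. Cathepsin L is known for the invariant chain in cortical thymic epithelium, and cathepsin S takes that role in dendritic cells and B cells. The other enzymes differ in where they cut. Cathepsins B and D and legumain cut inside chains, cathepsin H removes residues from the amino end, cathepsin Z from the carboxyl end, and cathepsin C removes dipeptides.

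Library totals lay between 15482439 and 19832326 counts, and TMM scaling factors, which correct for composition, between 0.884 (knockout library 1) and 1.06. Levels are CPM, counts scaled to a common library size with these factors, as mean ± SD of 3 libraries; single values follow the order of the library numbers, 1 to 3. Fold changes are knockout against wildtype, with the standard error (SE), and each adjusted p comes from edgeR's quasi-likelihood test with Benjamini-Hochberg adjustment over 24817 windows; a window is called at an adjusted p under 0.05. The Kat7 window itself held 267 ± 26.5 CPM with Kat7 intact and 21.2 ± 14.9 CPM in the knockout (n = 3 each; edgeR adjusted p = 0.0143). The knockout libraries held 11.9, 13.2 and 38.3 CPM there, so the loss was less complete in knockout library 3. All 8 markers of mature mTECs, Aire among them, passed the filter on low counts, with 7.56 to 166 CPM in wildtype. Markers of other cell types reached like levels, up to 136 CPM for myeloid and dendritic cells and 44.0 CPM for mesenchyme, so these values alone do not set mTECs apart. The comparison asks which protease promoters change when KAT7 is missing; in such bulk libraries fewer cells with an open promoter and less accessibility per cell cannot be told apart.

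The RefSeq promoter table (build GRCm38.p6) matched 6 of the 8 members, and not Ctsb and Ctsh. The last 120 bases before the annotated start of these 6 are shown because this stretch lies near the middle of each window and members with lower accessibility in knockout can be set beside members that did not pass. Each runs 5′ to 3′ along the gene. Capitals mark an E-box, a CCAAT box, a GC box, a TATA box or the core of an interferon-stimulated response element, on either strand. The first 3 genes were lower in knockout.
Ctsd: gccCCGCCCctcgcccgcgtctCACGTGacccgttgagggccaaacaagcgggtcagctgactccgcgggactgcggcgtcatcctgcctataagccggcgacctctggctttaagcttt
Ctsc: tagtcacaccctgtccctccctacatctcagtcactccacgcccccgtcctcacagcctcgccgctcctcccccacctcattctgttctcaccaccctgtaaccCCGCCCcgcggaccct
Ctss: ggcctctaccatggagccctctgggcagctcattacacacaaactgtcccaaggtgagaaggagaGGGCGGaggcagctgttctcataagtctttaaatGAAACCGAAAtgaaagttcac
Ctsl: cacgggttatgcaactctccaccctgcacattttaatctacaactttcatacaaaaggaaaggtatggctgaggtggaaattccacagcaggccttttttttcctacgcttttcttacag
Ctsz: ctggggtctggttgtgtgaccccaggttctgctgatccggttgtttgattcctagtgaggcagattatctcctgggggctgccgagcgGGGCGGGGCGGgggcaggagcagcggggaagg
Lgmn: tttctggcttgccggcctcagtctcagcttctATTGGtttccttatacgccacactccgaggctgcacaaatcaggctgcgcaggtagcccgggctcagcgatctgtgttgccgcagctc
The stretch of Ctsd is chr7:142387828-142387947 on the minus strand, that of Ctsc chr7:88277965-88278084 on the plus strand and that of Ctss chr3:95526666-95526785 on the plus strand. The stretch of Ctsl is chr13:64370521-64370640 on the minus strand, that of Ctsz chr2:174439040-174439159 on the minus strand and that of Lgmn chr12:102439729-102439848 on the minus strand. Lgmn has a further annotated start inside the gene, and the outer one was used, its start lying 2969 bases into its window.

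The 250 bases before each start were searched on both strands. An E-box, with the letters CACGTG, is bound by factors of the helix-loop-helix family. Ctsd held 2 E-boxes, of which 1, from 98 to 93 bases before the start, lies in the sequence TCACGTGA, the core of the CLEAR element that TFEB binds at lysosomal genes. That sequence occurs in 0.790% of 32851 annotated promoters, and the E-box that it contains in 6.02%. Ctsl had an E-box from 236 to 231 bases before the start, outside the stretch printed. The start used for Ctsl lies 2786 bases into its window, against 2953 (Ctsz) to 3043 (Ctsd) for the others printed. Windows begin 3000 bases before the start they were set on. At Ctsl most of the bases just before that start were therefore not searched, and motifs there would be missed. Ctss alone of the 6 had the interferon-stimulated core, from 21 to 12 bases before its start, a match present in 2.98% of promoters. GC boxes, with the letters GGGCGG, stood at Ctsd, Ctsz and Lgmn (2 each) and at Ctss and Ctsc (1 each), and 32.7% of promoters have one. CCAAT boxes stood at Ctsz and Lgmn (1 each; 33.9% of promoters), and a TATA box, with the letters TATAAA, lay at Ctss from 233 to 228 bases before the start (12.4% of promoters). The inner start of Lgmn, not printed, had 1 E-box and 1 TATA box. Ctsd was the most GC-rich of the 6, at 67.2% with 27 CpG sites, and Ctss the least, at 44.8% with 4. Ctsc (60.4%), Lgmn (60.4%) and Ctsz (58.8%) lay between them, as did Ctsl (47.2%), and the median promoter had 52.4%. No motif was shared by Ctsd, Ctsc and Ctss and missing from the other 3. These matches describe letters in a window and show no binding.

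All 8 windows were 5001 bases long and shared no base with another window, so none of their reads were subject to overlap. Raw counts per member and library ran from 334 to 3601, which puts counting error between 1.67% and 5.47% of a value. In wildtype, accessibility per kilobase of window was highest at Lgmn, with 33.1 ± 3.58 CPM per kb, followed by Ctsz (24.1 ± 0.984) and Ctsb (19.6 ± 0.374). Ctsl (17.2 ± 0.367) and Ctsh (16.7 ± 1.65) came next and overlapped over the 3 libraries, as did Ctsc (13.7 ± 1.05) and Ctsd (12.4 ± 0.983). Ctss was lowest, at 5.55 ± 0.414 CPM per kb. The order of the means was the same in knockout, but other neighbours overlapped. There Ctsz (21.2 ± 3.35 CPM per kb) overlapped with Ctsb (19.8 ± 2.03), Ctsb with Ctsl (17.0 ± 1.44), and Ctsh (11.4 ± 1.19) with Ctsc (10.7 ± 0.697), while Ctsl now stood apart from Ctsh.

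**Figure D1:**
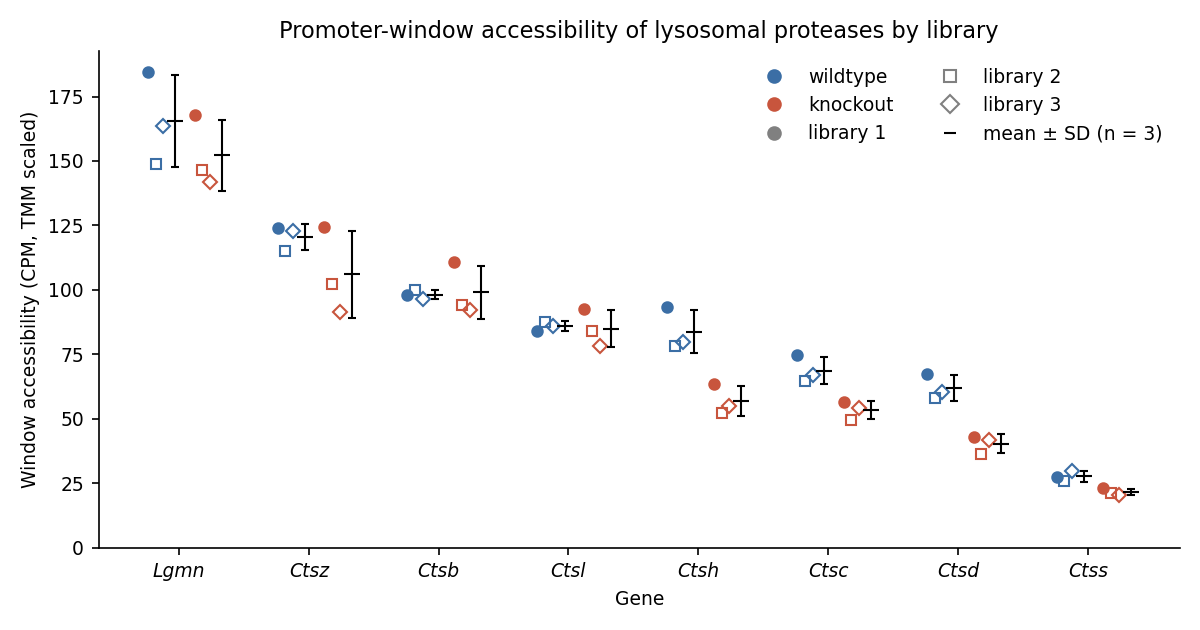
Accessibility (CPM, linear axis from 0) of the 8 protease windows in each of 6 libraries, ordered by wildtype mean, with library number by symbol and the mean ± SD of 3 libraries in black. The knockout libraries lie below all wildtype libraries at Ctsh, Ctsc, Ctsd and Ctss and the groups overlap at the other genes.

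Of the 8 members, 4 fell in knockout (Ctsd, Ctsh, Ctsc and Ctss) and 4 did not pass (Ctsz, Lgmn, Ctsl and Ctsb). No member was called higher by edgeR, by DESeq2 or by limma-voom, and none had an unadjusted p under 0.05 in that direction. Over all windows tested 20.2% fell and 6.36% rose. The share that fell was 43.2% in the third quartile of accessibility, where Ctss and Ctsd lie, and 3.72% in the fourth, which holds the other 6. The limit between these quartiles was 60.5 CPM, and Ctsc lay just above it, at the 75.1th percentile of accessibility, against the 77.8th for Ctsh. At the same 4 genes the groups did not overlap, with knockout below wildtype, a separation found at 24.6% of all windows. The median log2 fold change of the members was -0.27, beside 0.043 over all windows.

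**Figure D2:**
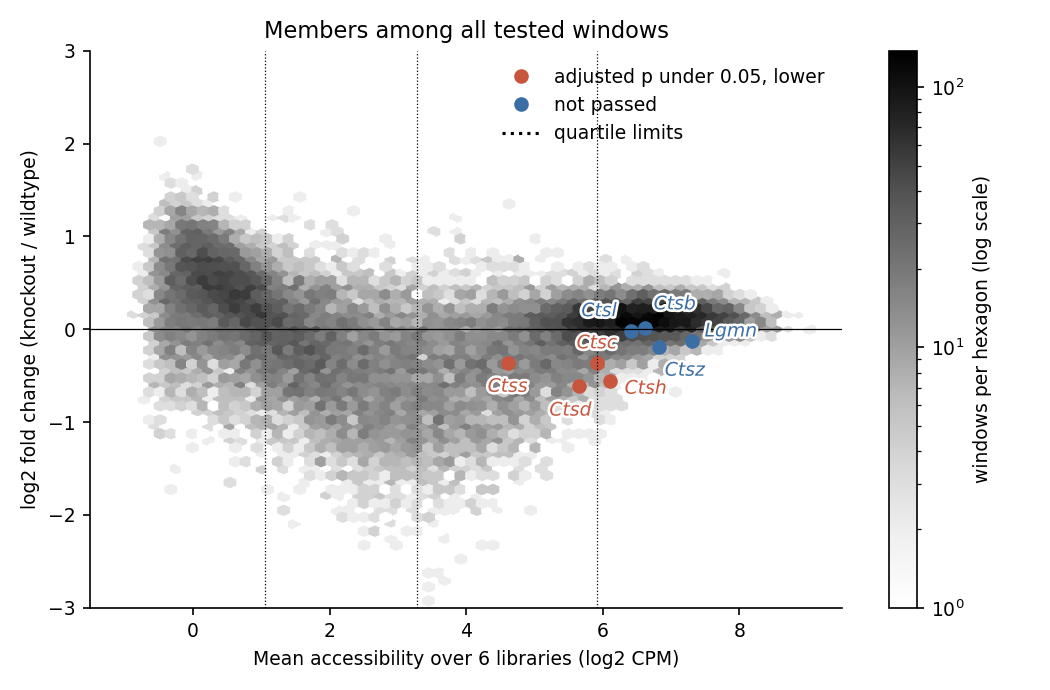
Log2 fold change against mean accessibility (log2 CPM over 6 libraries) for 24817 windows, shown as hexagons shaded by their number on a log scale, with the quartile limits as dotted lines. Ctsd and Ctsh lie at the 15.7th and 17.5th percentile of log2 fold change over all windows, and other windows of like accessibility lie further down. Ctss lies within the broad spread of the third quartile, and Ctsl and Ctsb within the dense band near no change.

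Among the enzymes that cut inside chains, Ctsd changed most. It encodes cathepsin D, the aspartic protease of the group (gene identifier 13033, chromosome 7, 142385870 to 142390870, minus strand). Its window held 67.4, 58.0 and 60.3 CPM in the wildtype libraries and 43.0, 36.4 and 41.8 CPM in the knockout ones, from raw counts of 1316, 908 and 1020 and 751, 610 and 684. The groups did not overlap, and the highest knockout library lay well under the lowest wildtype library. The mean went from 61.9 ± 4.92 to 40.4 ± 3.52 CPM (n = 3 each), a fall of 34.7% (log2 fold change -0.62, SE 0.113, edgeR adjusted p = 4.68e-07).

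Ctss encodes cathepsin S, which stays active at neutral pH and makes the last cut of the invariant chain in many antigen-presenting cells (gene identifier 13040, chromosome 3, 95523786 to 95528786, plus strand). Its window, the least accessible of the 8, held 27.6, 25.8 and 29.9 CPM in the wildtype libraries and 23.0, 21.4 and 20.4 CPM in the knockout ones, from raw counts of 539, 403 and 506 and 402, 359 and 334. The groups did not overlap, though the distance between knockout library 1 and wildtype library 2 was small. The mean went from 27.8 ± 2.07 to 21.6 ± 1.32 CPM (n = 3 each), a fall of 22.1% (log2 fold change -0.36, SE 0.116, edgeR adjusted p = 0.00989). With loess offsets, which remove the trend of fold change with accessibility, its log2 fold change was -0.063, adjusted p = 0.625. It also missed the threshold with DESeq2 (-0.31, adjusted p = 0.0790) and without knockout library 3 (-0.32, adjusted p = 0.0670).

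Ctsl and Ctsb, a pair of papain-like cysteine cathepsins, showed almost the same level in both groups. Cathepsin L is the enzyme of the invariant chain in cortical epithelium (gene identifier 13039, chromosome 13, 64368306 to 64373306, minus strand). Its window held 84.1, 87.7 and 86.2 CPM in the wildtype libraries and 92.6, 84.1 and 78.3 CPM in the knockout ones. The 3 wildtype values lay within those of knockout, whose libraries spread more widely (86.0 ± 1.84 against 85.0 ± 7.21 CPM, n = 3 each). The test did not pass (log2 fold change -0.017, SE 0.118, edgeR adjusted p = 0.938, 95% interval -0.25 to 0.21). Cathepsin B, which can also trim the carboxyl end, is encoded by Ctsb (gene identifier 13030, chromosome 14, 63119462 to 63124462, plus strand). Its window held 98.1, 100.1 and 96.3 CPM in the wildtype libraries and 111, 94.3 and 92.2 CPM in the knockout ones. Knockout library 1 was the highest of the 6 and knockout libraries 2 and 3 were the lowest, with means of 98.2 ± 1.87 and 99.1 ± 10.2 CPM. The test did not pass (log2 fold change 0.013, SE 0.120, edgeR adjusted p = 0.953, 95% interval -0.22 to 0.25). These intervals leave out a fall of the size seen at Ctsd.

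Lgmn encodes legumain, which cuts after asparagine and takes part in the maturation of cathepsins (gene identifier 19141, chromosome 12, 102437697 to 102442697, minus strand). It was the most accessible member, with 185, 149 and 163 CPM in the wildtype libraries and 168, 147 and 142 CPM in the knockout ones. Library 1 was the highest of its group in both genotypes, and the groups overlapped. The means were 166 ± 17.9 and 152 ± 13.9 CPM (n = 3 each), and the test did not pass (log2 fold change -0.12, SE 0.125, edgeR adjusted p = 0.511, 95% interval -0.37 to 0.12). Without knockout library 1 Lgmn was called lower (-0.20, adjusted p = 0.0404), as it was with loess offsets (-0.24, adjusted p = 0.00345), and it was called in 4 of 14 alternatives in all. Without wildtype library 1 its log2 fold change was -0.040, adjusted p = 0.903.

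Of the enzymes that trim chain ends, Ctsh fell most and from a higher level than Ctsd. Cathepsin H is an aminopeptidase (gene identifier 13036, chromosome 9, 90051267 to 90056267, plus strand). Its window held 93.3, 78.2 and 79.9 CPM in the wildtype libraries and 63.6, 52.2 and 54.9 CPM in the knockout ones, from raw counts of 1820, 1223 and 1352 and 1109, 874 and 897. The groups did not overlap, and library 1 was again the highest of each. The mean went from 83.8 ± 8.27 to 56.9 ± 5.94 CPM (n = 3 each), a fall of 32.1% (log2 fold change -0.56, SE 0.116, edgeR adjusted p = 1.23e-05).

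Ctsc encodes cathepsin C, the dipeptidyl peptidase known for activating granzymes and other serine proteases of immune cells (gene identifier 13032, chromosome 7, 88275093 to 88280093, plus strand). Its window held 74.6, 64.6 and 66.9 CPM in the wildtype libraries and 56.6, 49.7 and 54.1 CPM in the knockout ones, from raw counts of 1456, 1011 and 1132 and 987, 832 and 885. The groups did not overlap. The mean went from 68.7 ± 5.24 to 53.5 ± 3.48 CPM (n = 3 each), a fall of 22.2% (log2 fold change -0.36, SE 0.114, edgeR adjusted p = 0.00746). It missed the threshold without wildtype library 1 (-0.30, adjusted p = 0.108) and without knockout library 2 (-0.31, adjusted p = 0.0939).

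Ctsz encodes cathepsin Z, a carboxypeptidase (gene identifier 64138, chromosome 2, 174436992 to 174441992, minus strand). Its window held 124, 115 and 123 CPM in the wildtype libraries and 124, 102 and 91.4 CPM in the knockout ones. Knockout library 1 was as high as the highest wildtype library, and knockout libraries 2 and 3 lay below every wildtype library. The means were 121 ± 4.92 and 106 ± 16.8 CPM (n = 3 each), and the test did not pass (log2 fold change -0.19, SE 0.121, edgeR adjusted p = 0.276, 95% interval -0.42 to 0.052). Without knockout library 1 Ctsz was called lower (-0.32, adjusted p = 0.00109), as it was without wildtype library 2 (-0.26, adjusted p = 0.0321), and it was called in 8 of 14 alternatives in all.

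**Figure D3:**
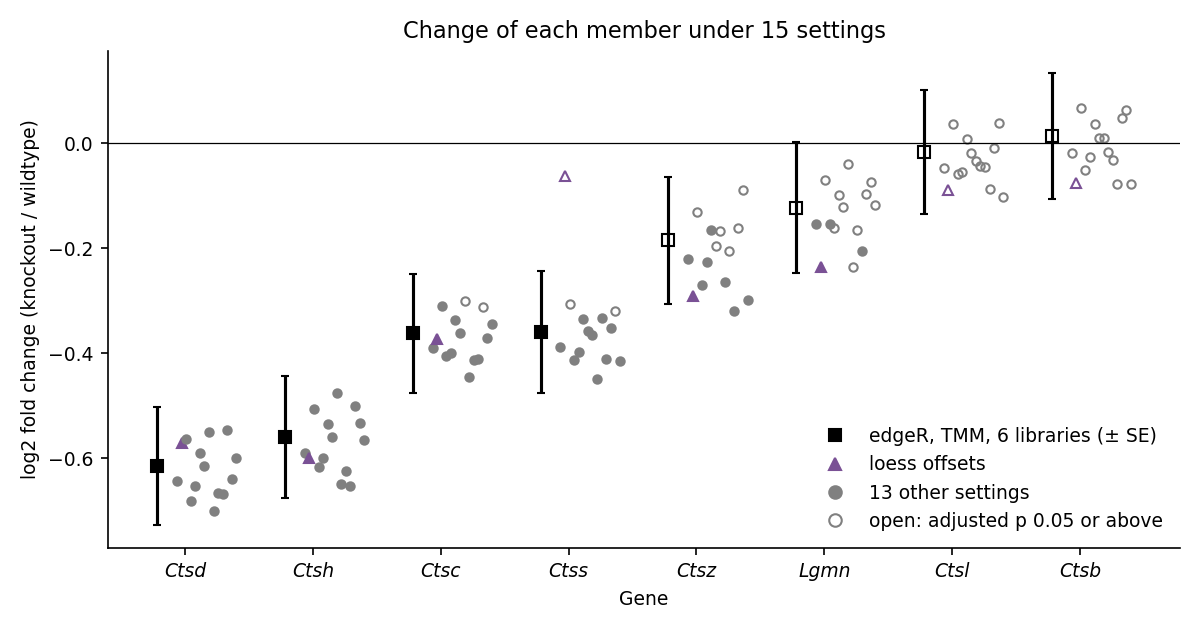
Log2 fold change of each member by edgeR with TMM factors on all 6 libraries (square, ± SE) and under 14 alternatives (circles, and a triangle for loess offsets), filled where the adjusted p was under 0.05. Ctsd and Ctsh are filled and below -0.4 throughout, Ctss moves to -0.063 with loess offsets, and Ctsl and Ctsb are open throughout.

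Ctsd and Ctsh were called lower in all 14 alternatives, with log2 fold changes from -0.70 to -0.55 and from -0.65 to -0.48. Ctsl and Ctsb were called in none of them, and their sign changed among them. The number of members called lower was 3 with DESeq2, 5 with loess offsets and 6 with library totals or limma-voom, and 6 without knockout library 1. No alternative called a member higher. Over all windows the higher share of calls was 23.9%, against 35.6% with library totals and 46.8% with loess offsets. No scaling moved the median of all windows by more than 0.053 (DESeq2).

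Ratios of the raw counts of 2 members within a library do not depend on library scaling. For every count of Ctsd there were 1.46, 1.72 and 1.60 counts of Ctsb in the wildtype libraries and 2.57, 2.59 and 2.20 in the knockout ones, without overlap. The ratio of Ctsl to Ctsb was 0.857, 0.877 and 0.895 in wildtype and 0.836, 0.892 and 0.849 in knockout, which overlapped. Among the genes that fell, the ratio of Ctsd to Ctsh overlapped between groups (0.723, 0.742 and 0.754 against 0.677, 0.698 and 0.763). That of Ctsd to Ctsc did not (0.904, 0.898 and 0.901 against 0.761, 0.733 and 0.773), being lower in knockout. Of the 28 pairs among the 8 members, 17 had ratios that did not overlap between groups. These were 14 of 16 pairs of a gene that fell with a gene that did not pass, 2 of 6 pairs of genes that fell and 1 of the 6 pairs of the other genes. Since the split follows the calls, these counts describe the same values in another form. With 3 libraries a group, an exact permutation test of a single ratio cannot go below 0.1.

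Knockout library 1 was the highest knockout library at all 8 members. At Ctsl, Ctsb, Ctsz and Lgmn it had 108%, 113%, 103% and 101% of the wildtype mean. Knockout library 3 had 91.0%, 93.9%, 75.8% and 85.7%. At Ctsd the 3 knockout libraries kept 69.5%, 58.8% and 67.6%, and at Ctsh 75.9%, 62.3% and 65.5%. Without knockout library 1, Ctsd (-0.67, adjusted p = 1.02e-06) and Ctsh (-0.65, adjusted p = 4.25e-07) had log2 fold changes at least as large. This library had the lowest TMM factor, 0.884, and with library totals alone Ctsz (-0.22, adjusted p = 0.00195) and Lgmn (-0.15, adjusted p = 0.0327) were called lower. The part of this library's scaling in the calls was not tested.

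The windows next to the members were examined to see whether a change reached beyond the protease gene. On chromosome 7 both neighbours of Ctsd fell with it. From here on, pairs of levels give wildtype first and knockout second. Ifitm10, a gene of the interferon-induced transmembrane family 15.6 kb downstream, had 10.6 ± 1.58 CPM against 5.75 ± 0.627 CPM, log2 fold change -0.89 with adjusted p = 6.26e-07. Syt8, a synaptotagmin gene 46.1 kb upstream, had 39.9 ± 3.27 CPM against 23.9 ± 1.91 CPM, log2 fold change -0.74 with adjusted p = 1e-09. Within 200 kb of Ctsd 6 of 16 other windows fell and 1 rose, beside the 20.2% that fell over all windows. That share was 43.2% in the third quartile of accessibility and 3.72% in the fourth, and the neighbouring windows were not matched by level. Within the same distance 2 of 3 windows were lower around Ctsh, 1 of 12 around Ctss and 0 of 1 around Ctsc. Windows also changed around members that did not pass, with 2 lower and 3 higher of 9 around Ctsb and 2 lower of 7 around Ctsz, while edgeR called none of 5 around Ctsl and of 4 around Lgmn. The others that fell near Ctsd, named after seeing their values, were the troponin genes Tnni2 (-0.48) and Tnnt3 (-0.51) and the leukocyte gene Lsp1 (-0.80) upstream, and the keratin-associated gene Krtap5-3 (-0.72) downstream. Krtap5-3 passed only narrowly (edgeR adjusted p = 0.0481) and at a low level, 3.68 ± 0.591 CPM against 2.25 ± 0.807 CPM. Near Ctsh, the upstream neighbour Rasgrf1, an exchange factor for Ras, fell (-0.91, adjusted p = 2.71e-08), and the downstream neighbour Morf4l1, a chromatin gene, did not pass (0.097, adjusted p = 0.616).

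At Ctss and Ctsc the adjacent windows did not pass. Ctsk, the gene of cathepsin K, an osteoclast enzyme, lies 27.5 kb upstream of Ctss. Its window held only 4.08 ± 0.837 CPM in wildtype against 4.59 ± 0.329 CPM (log2 fold change 0.17, adjusted p = 0.618), and Hormad1, a meiosis gene on the other side, had 0.25, adjusted p = 0.645. The neighbours of Ctsc lie far away, Grm5 (0.51, adjusted p = 0.455) at 694 kb and Rab38 (0.17, adjusted p = 0.349) at 152 kb. Of the neighbours of members that did not pass, Tubb1, a platelet tubulin gene 10.7 kb upstream of Ctsz, fell (-0.32, adjusted p = 0.0414). Nelfcd on the other side of Ctsz (-0.070, adjusted p = 0.692), Prxl2c (0.18, adjusted p = 0.286) and Cdk20 (-0.033, adjusted p = 0.879) beside Ctsl, and 2700070H01Rik (0.053, adjusted p = 0.813) and Fdft1 (0.011, adjusted p = 0.962) beside Ctsb did not pass, nor did Rin3 (0.21, adjusted p = 0.173) and Golga5 (-0.0017, adjusted p = 0.994) beside Lgmn.

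**Figure D4:**
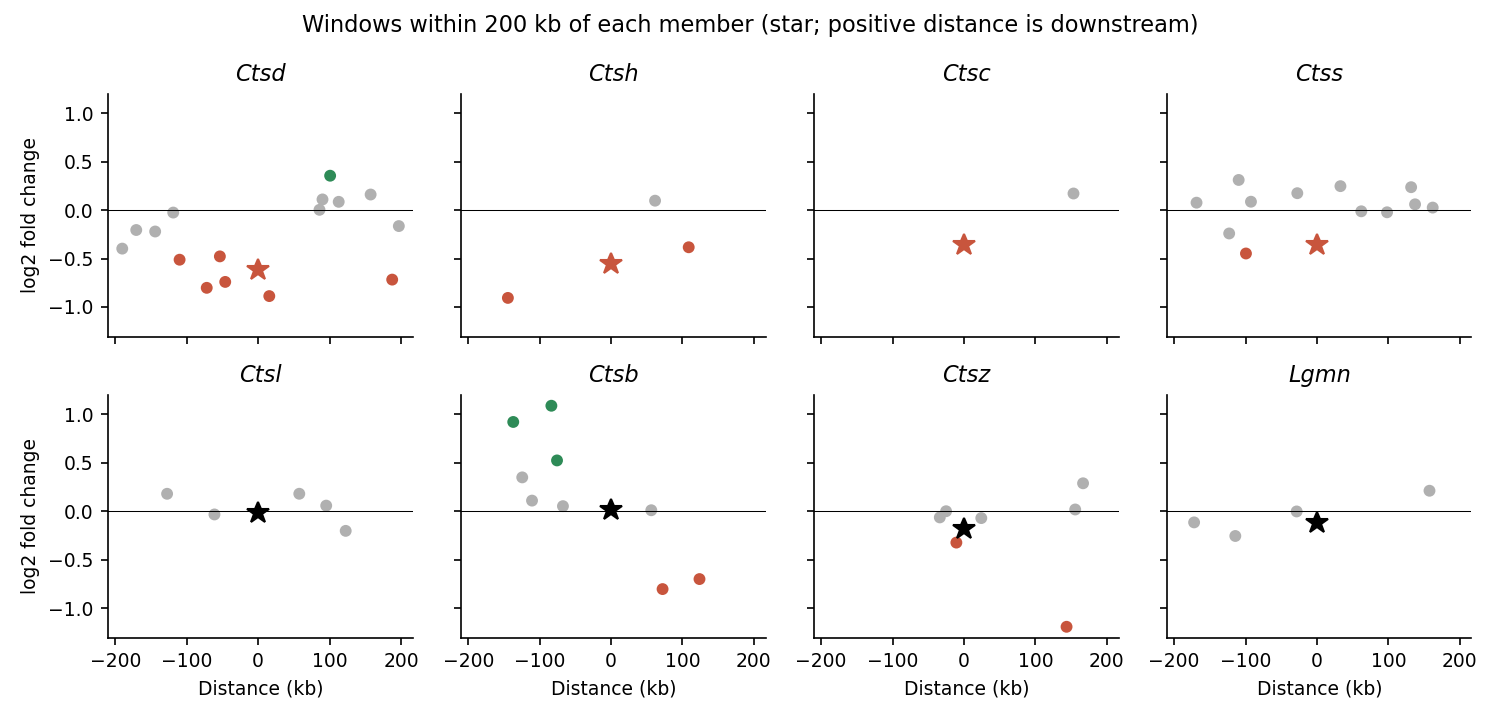
Log2 fold change of every tested window centred within 200 kb of each member against its distance in kb (positive is downstream of the member), with the member as a star and colours for lower (red), higher (green) and not passed (grey, or black for a star). Around Ctsd 6 of 16 windows are red, around Ctsh 2 of 3, around Ctss 1 of 12, and around Ctsb 2 are red and 3 green of 9.

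The windows with the profile most like the mean log2 CPM of the 8 members over the 6 libraries were named among 9140 with a mean count of at least 500. They were Uap1l1 (Pearson's r = 0.9992), Rsad2 (0.9991), an interferon-induced antiviral gene, Tmem191c (0.9984), Elovl7 (0.9978), a fatty acid elongase gene, and Itpr2 (0.9977), a calcium channel gene. The 6 points share the scaling and the split into 2 groups, and 508 windows had an r above 0.95. Uap1l1 (-0.39), Rsad2 (-0.41) and Elovl7 (-0.39) fell, and Tmem191c (-0.27, adjusted p = 0.0748) and Itpr2 (-0.16, adjusted p = 0.332) did not pass.

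The proteases were set beside the genes they work with, first those of their own family. Over all windows tested 20.2% fell and 6.36% rose. The share that fell was 43.2% in the third quartile of accessibility and 3.72% in the fourth, and none of the lists was matched by level. Of 9 tested windows of other cathepsins and lysosomal proteases, 1 fell and 8 did not pass, with a median log2 fold change of 0.069. The one that fell was Napsa, the gene of the aspartic protease napsin A (12.8 ± 1.01 CPM against 7.47 ± 0.344 CPM, log2 fold change -0.78 with adjusted p = 1.98e-06), which missed the threshold with loess offsets (-0.31, adjusted p = 0.0641). Ctse, the gene of another aspartic protease, named after its value was seen, did not pass (0.19, adjusted p = 0.697). Without wildtype library 2 or knockout library 2 the count lower was 2. With loess offsets it was 0 and 2 were called higher, Prss16, a thymic serine protease gene (0.54, adjusted p = 0.000244), and Ctsk (0.50, adjusted p = 0.0376), and with library totals or limma-voom 2 were lower. Ctso (0.069, adjusted p = 0.698) and Tpp1 (-0.17, adjusted p = 0.274) did not pass. The placental relatives of Ctsl had only 0.711 to 1.34 CPM in wildtype and a median log2 fold change of 0.79, and 1 of 9, Cts3, was called higher (0.736 ± 0.441 CPM against 1.80 ± 1.02 CPM, log2 fold change 1.30 with adjusted p = 0.0273). That count was 6 without knockout library 1 and 0 when wildtype library 1 or 2 or knockout library 2 or 3 was left out. The lowest quartile of accessibility, under 2.07 CPM, had a median log2 fold change of 0.37 as a whole. With loess offsets the median of the placental windows was 0.46. Of 8 windows of cathepsin inhibitors (median 0.050), edgeR called none, with 1 higher at an unadjusted p under 0.05, 1 higher by DESeq2, and 2 higher and 1 lower by limma-voom. Among them Cstb, the gene of cystatin B, had 0.27, adjusted p = 0.0999 and Cst3, that of cystatin C, 0.0041, adjusted p = 0.984.

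Of 12 genes of the class II molecule and its loading, 3 fell and 9 did not pass, with a median of -0.24 beside the -0.27 of the proteases and 20.2% of all windows lower. That share was 43.2% in the third quartile of accessibility (median -0.19) and 3.72% in the fourth (median 0.11). Wildtype levels of the list ran from 0.973 to 481 CPM, and it was not matched by level. Those that fell were H2-Ob (81.1 ± 2.28 CPM against 53.5 ± 3.43 CPM, log2 fold change -0.60 with adjusted p = 2.05e-06), H2-DMb2 (-0.53, adjusted p = 0.000207) and H2-DMb1 (-0.44, adjusted p = 0.00184). They encode beta chains of H2-O and of the peptide exchange factor H2-DM. The alpha chain genes H2-DMa (-0.22, adjusted p = 0.218) and H2-Oa (-0.14, adjusted p = 0.415), named after their values were seen, did not pass. H2-Ab1 (-0.16, adjusted p = 0.409) and H2-Eb1 (-0.30, adjusted p = 0.0740), of the class II molecule itself, did not pass. These 4 depended on the setting, for H2-Eb1 was called lower in 10 of 14 alternatives, H2-DMa in 9, and H2-Oa and H2-Ab1 in 5 each. H2-Ob, H2-DMb2 and H2-DMb1 were called lower in all 14. The count lower was 6 without wildtype library 2, 6 without wildtype library 3, 9 without knockout library 1 and 10 with loess offsets, and without knockout library 1 the count higher was 1.

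In the rest of the lysosome the counts depended on the scaling. They stand beside 20.2% lower and 6.36% higher over all windows by edgeR. In the fourth quartile of accessibility, above 60.5 CPM, only 3.72% fell and the median log2 fold change was 0.11. The lists were not matched by level, so few falls or a median above 0 do not set them apart from windows of like accessibility. Of 25 tested windows of other lysosomal hydrolases and their helpers, 2 fell, 1 rose and 22 did not pass, with a median of -0.016, whose sign turned with DESeq2 (0.038). Gm2a, the activator of ganglioside breakdown (67.1 ± 8.33 CPM against 40.3 ± 1.88 CPM, log2 fold change -0.74 with adjusted p = 9.45e-10), and Acp5, an acid phosphatase gene (-0.72, adjusted p = 3.12e-06), fell, the latter not with loess offsets (-0.26, adjusted p = 0.132). Gusb, the gene of beta-glucuronidase, rose (0.44, adjusted p = 0.00213), and Neu1 (-0.15, adjusted p = 0.402) and Asah1 (-0.10, adjusted p = 0.585) did not pass. Without wildtype library 2, wildtype library 3 or knockout library 1 the counts lower were 5, 4 and 7, and without wildtype library 2 the count higher was 3. Of 13 genes that deliver enzymes to lysosomes (median 0.18), 1 rose, the sorting receptor gene Sort1 (72.3 ± 5.82 CPM against 95.2 ± 7.93 CPM, log2 fold change 0.40 with adjusted p = 0.00430; window shared with another), and M6pr (-0.025, adjusted p = 0.912) and Gga1 (0.21, adjusted p = 0.214) did not pass. Of 10 lysosome regulators (median 0.16), 1 rose, Rragd, a GTPase gene of lysosomal nutrient sensing (69.0 ± 4.39 CPM against 94.0 ± 13.7 CPM, log2 fold change 0.45 with adjusted p = 0.000961), and Tfeb (0.19, adjusted p = 0.277) and Rragc (0.071, adjusted p = 0.724) did not pass. Without wildtype library 2 each of these lists had 2 called higher, as did delivery without knockout library 3 and the regulators without knockout library 1. Delivery had 1 called lower without wildtype library 2 or knockout library 1, and the regulators 1 without the latter. More were called under other scalings and filters. With library totals, loess offsets, limma-voom and a mean count of at least 50, delivery had 7, 4, 4 and 8 called higher and the regulators 3, 4, 3 and 4. In the same order the other hydrolases had 5, 6, 7 and 4 lower and 3, 5, 2 and 5 higher.

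Over all windows edgeR called 20.2% lower and 6.36% higher, and it called none of the 15 subunits of the proton pump that acidifies lysosomes (median 0.12). Their levels reached 179 CPM in wildtype. In the fourth quartile of accessibility, above 60.5 CPM, 3.72% fell and the median was 0.11, and neither this list nor the next was matched by level. Of these subunits 3 were higher at an unadjusted p under 0.05, 2 by DESeq2, 4 by limma-voom and 6 with library totals. The edgeR count was 3 higher without wildtype library 2 and 2 higher without knockout library 1 or 3. Atp6v0c had 0.014, adjusted p = 0.953 and Atp6v0a1 0.30, adjusted p = 0.0603. Of 14 autophagy genes (median 0.079) 1 fell, Atg12 (5.34 ± 0.638 CPM against 3.39 ± 0.490 CPM, log2 fold change -0.65 with adjusted p = 0.0189), whose window lies mostly within another and which missed the threshold when wildtype library 2 or 3 or knockout library 2 or 3 was left out, and Sqstm1 (0.053, adjusted p = 0.808) and Ulk1 (0.073, adjusted p = 0.719) did not pass. Atg12 also missed it with DESeq2 (-0.60, adjusted p = 0.0618) and with loess offsets (-0.32, adjusted p = 0.225). The direction of the autophagy calls turned with the scaling, to 0 lower and 5 higher with loess offsets, 0 lower and 2 higher with DESeq2, 1 lower and 4 higher with library totals, 1 lower and 2 higher with limma-voom, and 1 lower and 5 higher with a mean count of at least 50.

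**Figure D5:**
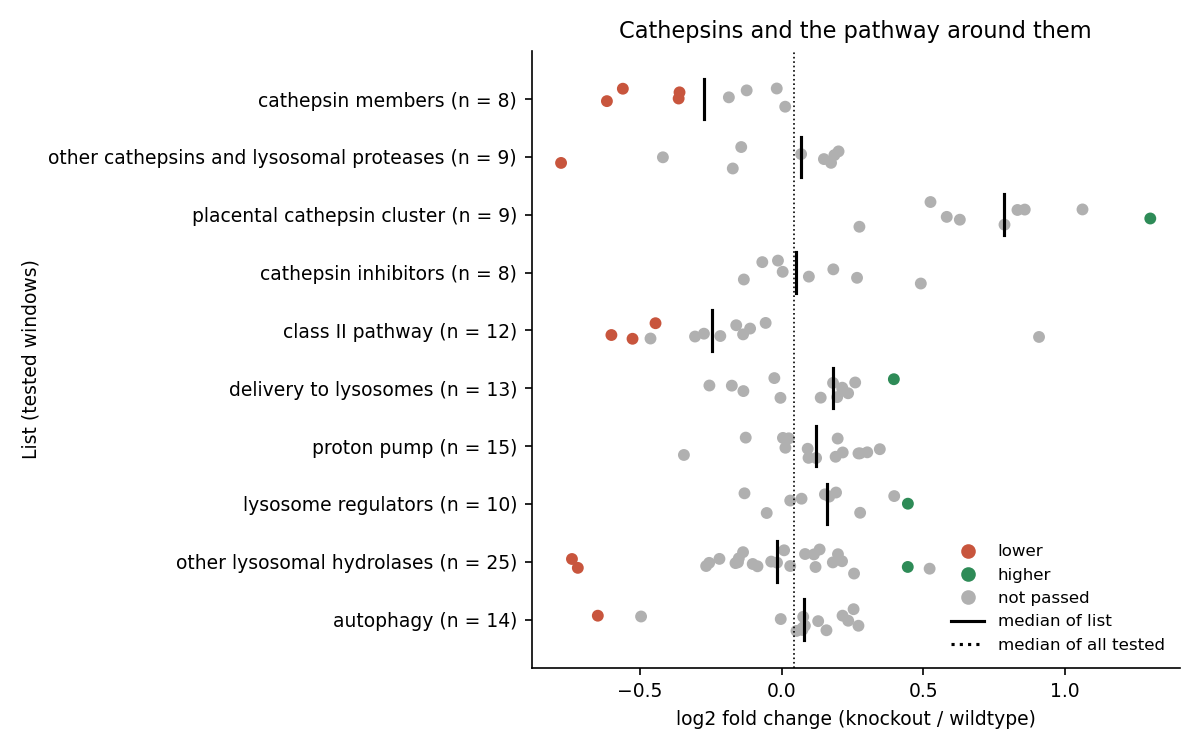
Log2 fold change of each tested window in 10 lists (one point per window, red lower, green higher, grey not passed), with the list median as a bar and the median of all windows as a dotted line. The protease and class II medians, -0.27 and -0.24, lie left of that line.

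Macrophages, dendritic cells and B cells, which a thymic sort can carry along, use the same proteases, so their markers were read beside them. The counts below stand beside 20.2% lower and 6.36% higher over all windows, and 43.2% lower in the third quartile of accessibility. Of 15 myeloid and dendritic cell markers 5 fell (Csf1r, Lyz2, Spi1, Cx3cr1 and Flt3), 2 rose (Zbtb46 and Ptprc) and 8 did not pass, these names being given after their values were seen. Their summed accessibility was 372 to 382 CPM (wildtype) against 354 to 429 CPM (knockout). The most accessible of these windows held 136 CPM in wildtype. Sums here and below therefore rest mostly on the most accessible markers and can hide changes at the others. The lowest wildtype levels were those of Fcgr1 (1.83 CPM), Ptprc (1.97 CPM) and Mrc1 (1.98 CPM). Of 5 B cell markers 3 fell, with sums of 57.2 to 58.3 CPM (wildtype) against 36.4 to 38.1 CPM (knockout). Of 6 thymocyte markers 2 rose, with sums of 27.7 to 31.6 CPM (wildtype) against 34.5 to 37.3 CPM (knockout). Of 8 markers of cortical epithelium, where Ctsl is best known, 1 fell and 3 rose, with sums of 364 to 426 CPM (wildtype) against 566 to 678 CPM (knockout). Of 6 mesenchyme markers 2 fell and 1 rose (141 to 151 CPM (wildtype) against 128 to 134 CPM (knockout)), and of 4 endothelium markers 2 fell and 1 rose (39.8 to 43.3 CPM (wildtype) against 31.8 to 34.7 CPM (knockout)). The mature mTEC markers summed to 769 to 819.8 CPM (wildtype) against 767 to 933 CPM (knockout), and 1 of 8 fell. No marker of these lists was at 0 in all libraries. The part of these cells in the falls at Ctsd, Ctsh, Ctsc and Ctss was not tested.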

How the data were processed

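The 6 libraries were 3 wildtype and 3 knockout. Each deposited value is a count of fragments or reads in a gene's window, made by the authors with featureCounts on build mm10, per the submitters' processing notes. No source used here gives the aligner, the handling of duplicates or a read shift, and the share of duplicates in a count was not tested. The count table holds no symbols, which came by gene identifier from the per-library tables with the same counts. Windows with low counts were removed (filterByExpr), leaving 24817 of 27095. Tests used edgeR 4.0.16 (TMM, robust quasi-likelihood, R 4.3.3), with SE taken from the F statistic and 95% intervals from its degrees of freedom. The script was tested on simulated data. Alternatives used library totals, loess offsets, DESeq2 1.42.0, limma-voom 3.58.1, other filters, a replicate block and left-out libraries. Named were all members, in each list up to 4 called genes with the largest change and the 2 most accessible others, nearest windows and the 5 most alike profiles. Members and lists were chosen with earlier results of these data known. Counting error covers sampling of reads only.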

Additional observations from a re-analysis of the deposited data

How the results depend on the processing

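Over 14 alternatives the number of proteases called lower stayed between 3 and 6, and none was called higher. The windows called lower stayed within 1.5 times of 5011. The windows called higher, 1578 by the settings of the report, were 2937 with library totals, 4299 with loess offsets, 4738 with limma-voom, 3937 with a mean count of at least 50, 2824 with the replicate block, 2664 with libraries 2 and 3 of each group alone and 689 to 3177 with 1 library left out. The sign of Ctsl turned with DESeq2 (0.037), with a mean count of at least 50 (0.0081) and over left-out libraries (-0.087 to 0.039). That of Ctsb turned with library totals (-0.018), loess offsets (-0.077), limma-voom (-0.052), no filter (-0.026), libraries 2 and 3 alone (-0.078) and over left-out libraries (-0.079 to 0.062). The cause was not tested. The replicate block called 4 proteases lower, and Ctsd had -0.62, adjusted p = 4.47e-08. Same-numbered libraries deviated together with r = 0.374, 0.0284 and 0.389, and knockout library 2 correlated better with wildtype library 3 (0.308), so the numbers were not taken to pair them. At Ctss, with the fewest counts, counting error reaches 5.47%.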
